A study of Mus musculus with 16 samples.

Results

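Broad H3K27ac domains of macrophages are stretches of the genome where the active mark H3K27ac was called as 1 continuous peak of 5000 bp or more. They were chosen by their width in the deposited H3K27ac peak list on chromosomes 1 to 19 and X, and a peak that overlapped a peak of the repressive mark H3K27me3 was left out. Of 51582 H3K27ac peaks, 2140 were wide enough, 63 of these overlapped H3K27me3, and 2077 remained (4.03% of the H3K27ac peaks). Because width in the H3K27ac list chose the members, their widths and H3K27ac values are given as a description, with no test.

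The peaks came from chromatin immunoprecipitation followed by sequencing (ChIP-seq) of primary macrophages, grown from bone marrow of adult C57BL/6 mice for 5 days with M-CSF, the growth factor that drives this lineage. EZH2 was mapped in wild-type cells given nigericin after LPS priming and in untreated wild-type cells. SIRT1 was mapped in untreated Ezh2 knockout cells beside their Ezh2 wild-type cells, and in untreated p53 knockout cells beside their p53 wild-type cells. p53, H3K27ac and H3K27me3 were mapped in untreated wild-type cells, so the domains describe resting wild-type macrophages and were not measured after LPS and nigericin or in a knockout. Each of these 9 libraries stands alone in its group (n = 1), no difference between conditions has a replicate check, and every interval below is a 95% interval for counting error only. How the knockouts were made, and from how many animals each library came, is not given in the sources used here.

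Acetylation of lysine 27 of histone H3 is laid down by the acetyltransferases p300 and CBP at active promoters and enhancers, and wide or clustered acetylated stretches are a known feature of genes that define a cell type. In macrophages the lineage factor PU.1, encoded by Spi1, opens such enhancers together with C/EBP, AP-1 and IRF proteins. EZH2, the enzyme of Polycomb repressive complex, methylates the same lysine, so a nucleosome tail carries one mark or the other. SIRT1 is a NAD-dependent deacetylase of histones and other proteins, p53 among them. p53 is a transcription factor of the stress response. Nigericin, a potassium ionophore, activates the NLRP3 inflammasome in cells primed with LPS.

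The promoters of some genes whose start lay in or beside a broad domain are shown first, as examples of the starts counted below. Each runs from 250 bases before to 50 bases after the start, 5′ to 3′ on the strand of the gene, as RefSeq gives it for GRCm38.p6, and matches to the searched motifs on either strand are in capitals. Psap encodes prosaposin, precursor of the lysosomal saposins (chr10:60277378-60277677, plus strand, with an AP-1 match).
Psap: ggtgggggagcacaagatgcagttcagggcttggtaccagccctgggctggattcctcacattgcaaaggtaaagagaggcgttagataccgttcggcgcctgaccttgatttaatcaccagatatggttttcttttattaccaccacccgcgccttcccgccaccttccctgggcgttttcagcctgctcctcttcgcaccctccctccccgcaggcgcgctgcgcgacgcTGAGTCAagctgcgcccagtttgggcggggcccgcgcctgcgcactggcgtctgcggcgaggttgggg
Grn encodes progranulin, a secreted and lysosomal protein (chr11:102430257-102430556, plus strand, with a CCAAT match).
Grn: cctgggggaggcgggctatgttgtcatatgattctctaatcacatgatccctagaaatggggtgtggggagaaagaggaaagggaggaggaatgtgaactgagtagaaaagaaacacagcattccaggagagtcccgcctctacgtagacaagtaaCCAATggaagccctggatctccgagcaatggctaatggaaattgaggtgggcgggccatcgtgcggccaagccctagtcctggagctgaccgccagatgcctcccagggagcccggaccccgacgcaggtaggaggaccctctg
Zeb2 encodes a zinc-finger transcription factor of the macrophage lineage (chr2:45110228-45110527, minus strand, with 2 AP-1 matches).
Zeb2: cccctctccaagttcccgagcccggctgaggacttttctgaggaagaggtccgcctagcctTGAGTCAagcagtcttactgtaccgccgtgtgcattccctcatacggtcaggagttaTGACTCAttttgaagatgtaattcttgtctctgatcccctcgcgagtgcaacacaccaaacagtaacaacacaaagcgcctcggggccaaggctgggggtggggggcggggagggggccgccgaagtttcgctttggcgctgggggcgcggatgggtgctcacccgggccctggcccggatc
Trem2 encodes a lipid-sensing receptor (chr17:48346151-48346450, plus strand, with AP-1, C/EBP and CCAAT matches).
Trem2: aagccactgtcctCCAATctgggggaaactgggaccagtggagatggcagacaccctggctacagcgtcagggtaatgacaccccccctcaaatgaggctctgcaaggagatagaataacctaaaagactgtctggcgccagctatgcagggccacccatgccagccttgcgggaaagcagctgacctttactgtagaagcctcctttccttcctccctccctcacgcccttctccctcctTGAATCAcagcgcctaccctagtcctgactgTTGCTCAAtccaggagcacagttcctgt
Lyz2 encodes lysozyme, the classic marker of mouse myeloid cells (chr10:117282223-117282522, minus strand, with an ETS match).
Lyz2: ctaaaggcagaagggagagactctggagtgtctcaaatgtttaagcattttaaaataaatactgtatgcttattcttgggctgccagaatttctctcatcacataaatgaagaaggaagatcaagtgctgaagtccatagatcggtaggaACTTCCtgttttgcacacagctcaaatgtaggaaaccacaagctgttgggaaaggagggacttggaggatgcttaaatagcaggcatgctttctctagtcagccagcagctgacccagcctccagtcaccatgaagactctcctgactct
Lipa, encoding lysosomal acid lipase, started 88 bp outside the edge of its domain (chr19:34527425-34527724, minus strand, with TATA, ETS and CCAAT matches).
Lipa: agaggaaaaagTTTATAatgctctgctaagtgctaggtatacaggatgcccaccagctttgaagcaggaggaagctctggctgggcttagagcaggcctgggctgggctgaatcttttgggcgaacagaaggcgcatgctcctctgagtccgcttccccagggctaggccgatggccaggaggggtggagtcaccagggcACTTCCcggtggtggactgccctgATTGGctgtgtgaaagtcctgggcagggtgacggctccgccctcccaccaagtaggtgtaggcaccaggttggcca
Rxra, encoding the nuclear receptor RXR-alpha, had no match to a searched motif at the start shown (chr2:27709042-27709341, plus strand). Rxra and Psap have 2 listed starts and Zeb2 has 4, and a single start of each is shown.
Rxra: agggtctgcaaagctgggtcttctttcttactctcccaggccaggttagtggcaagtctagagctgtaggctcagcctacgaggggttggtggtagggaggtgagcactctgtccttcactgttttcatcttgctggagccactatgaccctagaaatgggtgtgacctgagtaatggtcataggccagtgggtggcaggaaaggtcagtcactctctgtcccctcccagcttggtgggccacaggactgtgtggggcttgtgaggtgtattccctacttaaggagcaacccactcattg
Klf6, encoding a zinc-finger transcription factor, started 153 bp outside the edge of its domain (chr13:5861239-5861538, plus strand, with 4 CCAAT matches and an ETS match).
Klf6: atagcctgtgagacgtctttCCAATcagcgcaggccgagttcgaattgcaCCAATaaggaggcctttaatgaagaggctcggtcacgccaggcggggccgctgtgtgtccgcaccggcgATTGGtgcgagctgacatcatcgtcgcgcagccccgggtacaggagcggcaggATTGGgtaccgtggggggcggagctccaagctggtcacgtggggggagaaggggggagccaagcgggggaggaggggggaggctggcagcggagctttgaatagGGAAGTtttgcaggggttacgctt

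The domains covered 17.9 Mb, which was 24.6% of the 73.0 Mb under all H3K27ac peaks and 0.682% of the 2631 Mb spanned by the peaks on these chromosomes. Their median width was 7197 bp, with quartiles of 5852 and 9767 bp, against a median of 789 bp over all H3K27ac peaks. Of the 2077 domains, 495 were 10000 bp or wider and 62 were 20000 bp or wider. The fold in the list, which is the authors' value for fragments at the summit over local background, had a median of 5.02 in the domains and ranged between 1.61 and 12.7, against a median of 3.34 over all H3K27ac peaks. Wider domains tended to have the higher folds: the 603 domains with a fold of 6 or more had a median width of 8065 bp, and the 524 with a fold under 4 had a median of 6598 bp. At the width limit, the narrowest members were a domain of 5000 bp inside Uvrag and domains of 5001 bp at the start of Cd53 and of Blnk. The widest peaks that missed it were 4999 bp wide and lay inside Chst11, Zbtb21 and Xylt1, with folds of 6.90, 4.82 and 6.38.

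The widest domain spanned 50002 bp (chr4:132586629-132636630, GRCm38), ended 2395 bp from the nearest protein-coding gene, Eya3, and had a fold of 7.55. Next came 42652 bp inside Zmiz1, 39644 bp lying 47268 bp from Cpeb4, 37820 bp inside Plekho2 and 36623 bp inside Tfeb. Tfeb encodes the transcription factor that switches on lysosomal genes, and a second, separate domain of 5261 bp covered its start. A domain of 32799 bp lay inside Lrp1, which encodes an endocytic receptor. The highest H3K27ac fold, 12.7, stood in a domain of 8766 bp at the start of Stra6l. A domain inside Lat2, which encodes an adaptor of immune receptors, had a fold of 12.2. Domains inside Itpkb (11.4), Tnip1 (11.2) and Nfam1 (11.2), at the start of Slc43a2 (11.6) and of the prostacyclin receptor gene Ptgir (11.4) also ranked among the 10 highest. None of the 10 highest was among the 15 widest, and Slc43a2, with 23702 bp, was the widest of them.

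Of the 2077 domains, 996 (48.0%) lay within 10000 bp of another broad domain. Joining such neighbours gave 1466 groups, of which 385 held 2 or more domains and 119 held 3 or more. The same count was not made for shorter H3K27ac peaks, so it does not set broad domains apart from them. The largest group put 15 domains with 174943 bp of acetylated sequence beside and inside Lpp, which encodes a focal-adhesion protein (chr16:24866302-25064662). A group of 11 lay at Ergic1 and Dusp1, a phosphatase gene of the MAP kinase pathway. Groups of 8 lay at Atf3 and at Bcar3. Atf3 encodes a leucine-zipper transcription factor of the stress and inflammatory response, and the domain next to its start was narrow (5342 bp of the 104144 bp in the group). Groups of 7 lay inside Vps13d and Plpp3, at Slamf7, and in intergenic sequence nearest to Cebpb, Prdm1 and Tmco5. Cebpb encodes a leucine-zipper factor of the inflammatory response, and its group held 88210 bp while the separate domain next to its start held 5082 bp. By chromosome, the share of H3K27ac peaks that were broad was highest on chromosome 19 (5.30%) and chromosome 11 (5.07%). It was 0.536% on the X chromosome, where 4 of 746 peaks were broad (interval 0.209% to 1.37%), against 4.08% on the autosomes (3.91% to 4.25%). The 4 X-linked domains lay at the start of the endosomal receptor gene Tlr13 and inside Xiap, Ptchd1 and Sh3kbp1. Median peak width was 675.5 bp on X and 791 bp on the autosomes, with median folds of 3.34 on both. The sex of the donor mice is not given in the sources used here, and its part in the count on X was not tested.

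Most broad domains were not at gene starts. Taking protein-coding genes, 315 domains (15.2%) covered a start, 115 more (5.54%) had one within 1000 bp, 942 (45.4%) lay inside a gene body away from its start, and 705 (33.9%) were intergenic. Among H3K27ac peaks of 3000 to under 5000 bp without H3K27me3, 2844 in number and used throughout as the nearest comparison, 11.9% covered a start, 43.9% lay in a gene body and 36.3% were intergenic. Having a start within 1000 bp was about as common in the domains (20.7%, interval 19.02% to 22.5%) as in those shorter peaks (19.9%, interval 18.4% to 21.4%), although a wider region reaches more starts by its width alone. Intergenic domains lay a median of 27995 bp from the nearest protein-coding gene, and 232 of them were more than 50000 bp away. Domains with a start inside had a median width of 7429 bp, those in gene bodies 7279 bp and intergenic ones 7065 bp.

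Around the edges of the domains, gene starts were denser just outside than just inside, although 319 listed starts lay inside a domain. In the 500 bp outside the 4154 edges there were 99 listed starts, or 47.7 per 1000 edges and kb. The first 500 bp inside held 35 (16.9 per 1000 edges and kb), and the 500 bp lying 2000 to 2500 bp outside held 28 (13.5). Of the 99 starts just outside, 75 (75.8%, interval 66.5% to 83.1%) were transcribed into the domain. In the last 250 bp before an edge, 54 of 62 were. At these genes the domain lay downstream of the start. Lipa, Klf6, Plek (183 bp outside) and Atf3 (121 bp) are examples. Gpnmb (262 bp outside) was one of the starts transcribed away from the domain. The pattern was not particular to broad domains. Peaks of 3000 to under 5000 bp had 192 starts in the 500 bp outside their 5688 edges (67.5 per 1000 edges and kb, 68.2% transcribed inward) and 72 in the first 500 bp inside (25.3). Over the whole list, 9.20% of 21044 listed protein-coding starts fell inside an H3K27ac peak.

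**Figure D1:**
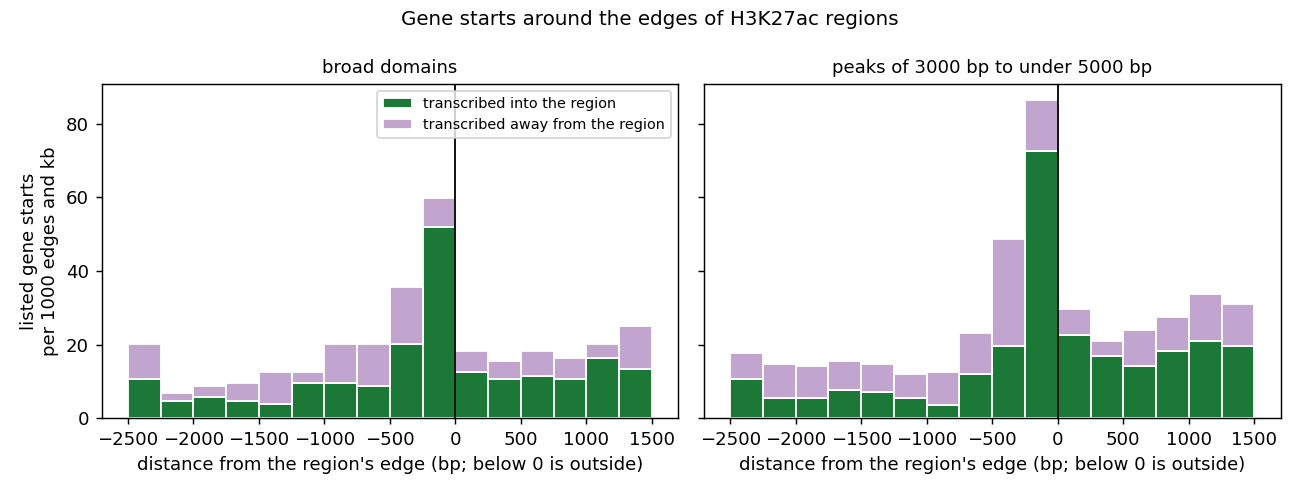
Listed protein-coding gene starts in bins of 250 bp around the edges of broad domains (left) and of H3K27ac peaks of 3000 to under 5000 bp (right), per 1000 edges and kb, with starts transcribed into the region in green and those transcribed away in mauve. The bin just outside the edge is the tallest in both panels, with 62 starts at broad domains.

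In all, 471 of 21627 protein-coding genes had a start within 1000 bp of a broad domain, which is 2.18% of them, whereas 25.6% (5539 genes) had a start within 1000 bp of an H3K27ac peak of any width. The 471 were therefore 8.503% of the genes with an H3K27ac peak within 1000 bp of a start. For 4354 genes without a listed start, either end of the gene counted as one. With the other 17273 genes alone, 362 were at a domain (2.10%).

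Of the lysosomal and autophagy genes, 11 of 28 were at a broad domain (39.3%, interval 23.6% to 57.6%), against the 2.18% of all protein-coding genes, and 23 of 28 were at an H3K27ac peak of any width. This was the highest share of the 18 lists at 5000 bp and within 1000 bp of the start, but the rank depended on both settings. Where the domain had to cover the start, 6 of 28 lysosomal genes and 8 of 31 surface receptors and markers had one (1.58% of all protein-coding genes). At a minimum width of 4000 bp it was 11 of 28 and 13 of 31 (3.08% of all). In both counts, genes without a listed start were matched by either end. With listed starts alone (5000 bp, within 1000 bp), 8 of 21 lysosomal genes and 3 of 21 surface receptors and markers had one. The share of all genes with a listed start was then 2.10%. The widest of the lysosomal set was at Psap, 18747 bp with a fold of 2.92 (chr10:60269147-60287893). Lipa followed with 18660 bp and a fold of 4.08. Npc1, which exports cholesterol from the lysosome, had 16258 bp, and Grn had 13396 bp. Among cathepsin genes, which encode lysosomal proteases, the domains were 13136 bp with a fold of 10.2 at Ctsd, 9704 bp at Ctsb and 6317 bp at Ctsz. A domain of 9153 bp lay at Atp6v0d2, a subunit of the proton pump that acidifies the lysosome. Gpnmb, encoding a lysosomal glycoprotein, had 8829 bp, Hexa, encoding a subunit of beta-hexosaminidase, had 6469 bp, and the start of Tfeb had 5261 bp. The set thus ran over enzymes, enzyme activators, the proton pump, cholesterol export and the transcription factor of the pathway.

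Of 38 macrophage transcription factor genes, 10 were at a broad domain (26.3%, interval 14.97% to 42.0%) and 36 at some H3K27ac peak. The count was 6 at a minimum width of 6000 bp and 3 at 8000 bp. The share of all protein-coding genes fell too, to 1.65% at 6000 bp and 0.934% at 8000 bp. Spi1 had the widest and highest of the 10, 19799 bp with a fold of 10.8 (chr2:91081577-91101375). Zeb2 had 14230 bp with a fold of 9.99. Rxra and Nr1h3, which encode RXR-alpha and the oxysterol receptor LXR-alpha, partners in lipid sensing, had 9985 and 5013 bp. The interferon regulatory factor genes Irf8 and Irf5 had 6985 and 6830 bp with folds of 6.38 and 9.22. Klf6 (6290 bp), Atf3, Tfeb and Cebpb made up the rest.

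Surface receptors and markers of macrophages were at broad domains in 8 of 31 cases (25.8%, interval 13.7% to 43.2%). Itgb2, the beta-2 integrin shared by leukocyte adhesion receptors, had the widest, 21899 bp. Trem2 and its signalling partner Tyrobp had 14952 bp and 13247 bp with folds of 6.66 and 7.02. Lyz2 had 11014 bp and Csf1r, the receptor for M-CSF, had 8746 bp with a fold of 7.87. Lpl (8534 bp), Lgals3 (8170 bp) and the scavenger receptor gene Msr1 (5014 bp) completed the set. For 5 of the 8 (Itgb2, Tyrobp, Csf1r, Lpl and Msr1) the start is not listed and the match was to an end of the gene. Genes of actin, adhesion and migration followed with 7 of 30 (23.3%, interval 11.8% to 40.9%). These were Myo1f (12796 bp), Lcp1 (12474 bp), Plek, Actg1 (fold 8.31), Lsp1, Dock2 and Lpxn, most of them haematopoietic actin regulators.

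Inflammasome and pyroptosis genes were at broad domains in 4 of 20 cases. Ninj1, whose product ruptures the plasma membrane at the end of pyroptosis, had 27216 bp with a fold of 4.93 (chr13:49178186-49205401). The ATP-gated channel genes P2rx4 and P2rx7 had 14826 and 5815 bp, and the pore-forming gene Gsdme had 5823 bp. Of the NF-kB and LPS response list, 3 of 32 were at one (9.38%, interval 3.24% to 24.2%), namely the receptor antagonist Il1rn (9883 bp), Traf1 (5680 bp) and the NF-kB inhibitor Tnfaip3 (5289 bp). Of the 32, 27 had an H3K27ac peak of any width within 1000 bp of a start. Of the type I interferon list, 2 of 20 were at a broad domain (Mx1 and Ifit3) and 20 of 20 at some H3K27ac peak. Ribosomal protein genes, which are expressed in every cell, had an H3K27ac peak within 1000 bp of a start in 27 of 32 cases and a broad domain in 1, Rpl10a (5182 bp). The intervals of these smaller lists overlap one another, and differences between lists were not tested.

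Of the markers of other cell types, 1 of 14 neutrophil genes (Csf3r, 7281 bp, fold 8.46) and 1 of 12 osteoclast and dendritic cell genes (Ctsk, 19969 bp) were at a domain. None of 17 lymphocyte, 11 stromal and endothelial or 9 erythroid markers was. H3K27ac at any width was at 2 of 14, 2 of 17, 4 of 11, 0 of 9 and 6 of 12 of the neutrophil, lymphocyte, stromal, erythroid, and osteoclast and dendritic cell markers, and at 29 of 31 macrophage receptors and markers. None of 35 developmental regulators under Polycomb control was at a domain, and 35 of 35 had H3K27me3, which the choice of domains bars. None of 16 sirtuin and NAD genes (interval up to 19.4%) and none of 26 genes for Polycomb proteins and H3K27 enzymes (up to 12.9%) was at one. Of 31 p53 targets, Gdf15, a stress-induced cytokine gene, was at one (10104 bp, interval 0.572% to 16.2%). The intervals of all these counts at domains include the 2.18% of all protein-coding genes. On these counts none of these lists stands apart from that share.

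**Figure D2:**
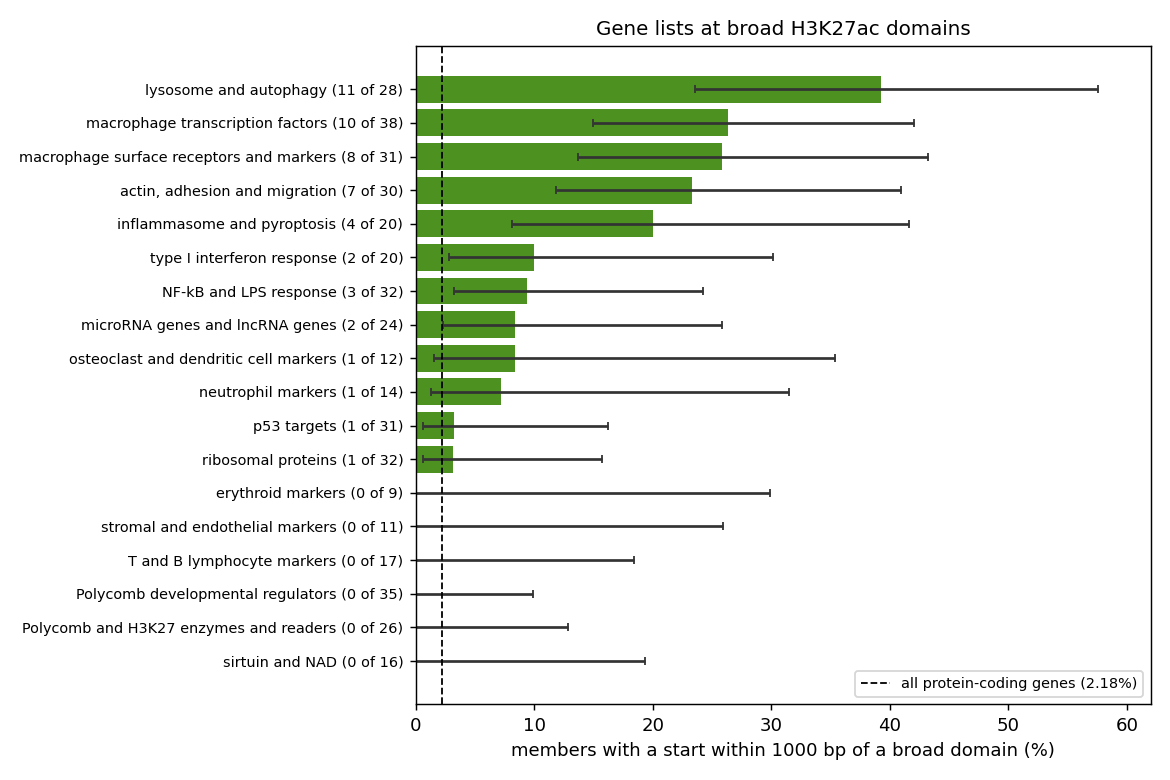
Percentage of the members of each gene list with a start within 1000 bp of a broad domain, with Wilson 95% intervals and counts in brackets. The dashed line is the 2.18% of all protein-coding genes, and lysosomal genes stand at 39.3%, above surface receptors at these settings but below them where a domain must cover the start or may be 4000 bp wide. Genes without a listed start are matched by either end in these counts. With listed starts alone, 8 of 21 lysosomal genes and 3 of 21 surface receptors were at a domain.

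Of 1005 microRNA hairpins, 18 overlapped a broad domain (1.79%) and 99 an H3K27ac peak of any width (9.85%). The hairpin best known in this lineage was Mir142, a microRNA of blood cells, in a domain of 10087 bp with a fold of 5.83 (chr11:87747752-87757838). This domain lay 356 bp from the nearest protein-coding gene, Tspoap1. Mir26b lay in a domain of 5176 bp with a fold of 5.48 and Mir339 in one of 5228 bp with a fold of 4.97. Their mature sequences are shown because they name the transcripts these domains hold, with the seed (bases 2 to 8) in capitals, and no 2 of the 4 shared a seed.
miR-142a-5p: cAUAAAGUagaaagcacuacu
miR-142a-3p: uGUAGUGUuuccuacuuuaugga
miR-26b-5p: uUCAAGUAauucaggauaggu
miR-339-5p: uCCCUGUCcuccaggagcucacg
The long non-coding RNA gene Malat1 was also at a domain, of 5659 bp.

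Promoter motifs were counted in windows of the same length, on both strands. Of 455 protein-coding promoters with a start in a broad domain or within 1000 bp of one, 161 (35.4%, interval 31.1% to 39.9%) held the ETS core GGAAGT. PU.1 and other ETS factors bind this core. The share was 30.7% of 5024 protein-coding promoters at other H3K27ac peaks and 23.8% of all 32851 listed promoters. The 32851 include promoters of non-coding genes, and the other peaks include wide ones left out for H3K27me3. The 455 promoters belong to 362 genes, so some genes count more than once. The intervals treat each promoter as separate and are too narrow for that reason. The AP-1 motif TGANTCA was in 10.5% of the domain promoters (interval 8.05% to 13.7%), in 5.61% of those at other peaks and in 7.81% of all. The remaining motifs were within 3 percentage points of the promoters at other peaks, including C/EBP (TTGCNNAA, 9.01% and 7.96%) and the interferon element (GAAANNGAA, 10.8% and 8.26%). NF-kB (GGGNNTTCC) was in 7.25% and 7.96%, and the stricter GGGANTTCC, contained in it, in 1.98% and 2.77%. The CRE motif TGACGTCA was in 1.54% and 2.93%, the TATA box TATAAA in 8.79% and 7.54%, and CCAAT in 31.2% and 32.4%. In the promoters shown above, AP-1 matches stood at Psap, Trem2 and Zeb2, and ETS matches at Lyz2, Lipa and Klf6, while the Rxra start shown had none of the motifs. These are letters in a window and do not show that a factor was bound.

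SIRT1 peaks were common in broad domains. A peak lay in 490 domains (23.6%, interval 21.8% to 25.5%) in Ezh2 knockout cells and in 1079 (51.9%, 49.8% to 54.1%) in Ezh2 wild-type cells. For the other pair, 1117 (53.8%, 51.6% to 55.9%) had one in p53 knockout cells and 1049 (50.5%, 48.4% to 52.7%) in p53 wild-type cells. Over all H3K27ac peaks the shares were 5.09% in Ezh2 knockout, 12.6% in Ezh2 wild type, 13.3% in p53 knockout and 11.8% in p53 wild type. Over peaks of 3000 to under 5000 bp they were 11.9%, 29.4%, 31.7% and 27.6% in the same libraries.

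The shares rose with the width of the region. Counted as summits per Mb, SIRT1 was about as dense in the domains as in the shorter peaks. There were 32.8 per Mb of domain and 32.2 per Mb of the peaks of 3000 to under 5000 bp in Ezh2 knockout cells, a ratio of 1.020 (interval 0.892 to 1.17). In Ezh2 wild-type cells the values were 94.0 and 87.1 per Mb (ratio 1.08, 0.996 to 1.17). p53 knockout cells had 99.8 and 92.9 per Mb (ratio 1.07), and p53 wild-type cells 86.6 and 80.9 per Mb (ratio 1.07). Even H3K27ac peaks under 500 bp held 34.3, 86.4, 89.7 and 79.0 summits per Mb in the 4 libraries. Acetylated sequence of any width thus had more SIRT1 peaks than the rest of the genome, where the density was 6.11, 26.5, 20.7 and 19.6 per Mb, and the domains exceeded that by 5.38, 3.54, 4.83 and 4.42 times. Peaks of H3K27me3 were also above that level, with 12.4, 44.8, 32.7 and 35.7 per Mb, and below the domains. The rest of the genome includes sequence to which reads cannot be placed, which lowers its density, and that part was not tested.

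**Figure D3:**
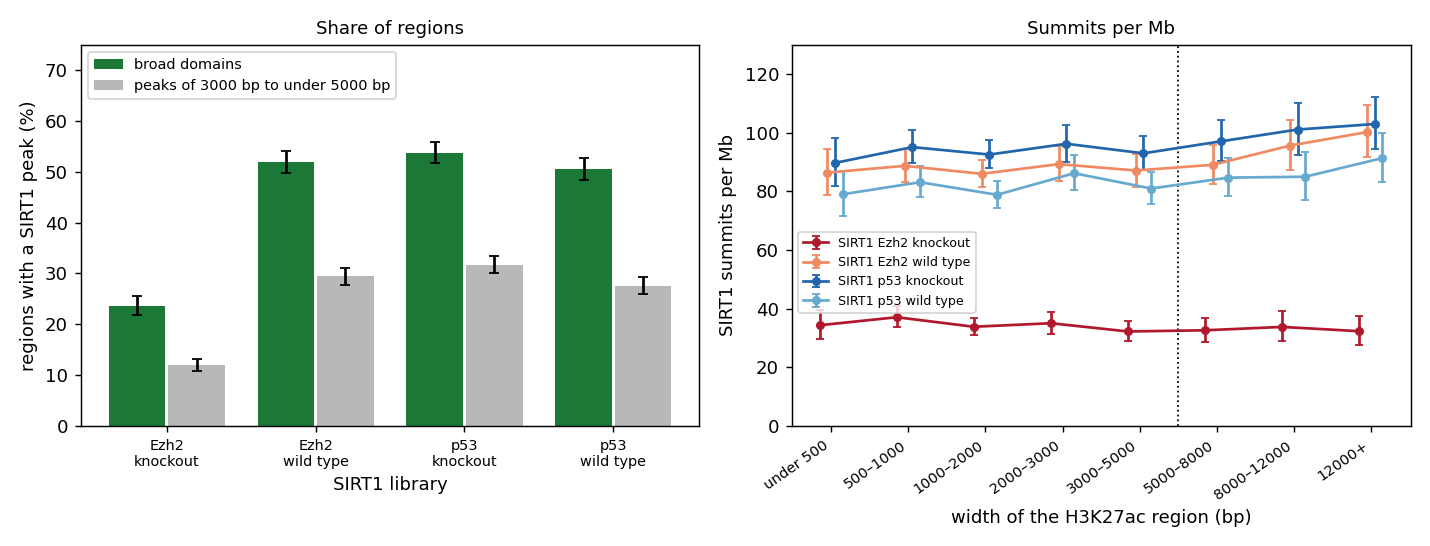
Left: percentage of broad domains (green) and of H3K27ac peaks of 3000 to under 5000 bp (grey) with a SIRT1 peak, in each of 4 libraries, with Wilson 95% intervals. Right: SIRT1 summits per Mb by width of the H3K27ac region, with exact Poisson 95% intervals. The dotted line marks 5000 bp. Shares differ between width classes in each library, while densities stay between 32.2 and 37.0 per Mb in Ezh2 knockout cells and between 78.8 and 103 per Mb in the others.

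The peaks behind these shares were small. A SIRT1 peak in a domain rested on a median of 5 fragments at its summit in Ezh2 knockout cells and 4 in the other 3 libraries, with a highest value of 9 in Ezh2 knockout, Ezh2 wild-type and p53 knockout cells and 8 in p53 wild-type cells. The smallest peak of a whole list had 4 fragments in Ezh2 knockout cells and 3 in each of the others, where the commonest local background was 0.854 fragments in Ezh2 knockout, 0.817 in Ezh2 wild-type, 0.813 in p53 knockout and 0.722 in p53 wild-type cells. The Ezh2 knockout list held 18087 peaks, against 74346 in Ezh2 wild type, 59703 in p53 knockout and 56129 in p53 wild type. Counting peaks of 4 or more fragments, a setting chosen after the data were seen, gave 23.6% in Ezh2 knockout and 45.1% in Ezh2 wild-type cells, and 47.1% in p53 knockout and 42.2% in p53 wild-type cells. With 5 or more fragments, chosen likewise, the share of domains with SIRT1 was 20.1% (interval 18.5% to 21.9%) in Ezh2 knockout and 23.5% (21.8% to 25.4%) in Ezh2 wild-type cells, and 27.7% (25.8% to 29.6%) in p53 knockout and 22.8% (21.1% to 24.7%) in p53 wild-type cells. Most of the gap of the Ezh2 knockout library therefore lay in peaks of 3 and 4 fragments. With every list limited to its 4878 best peaks the order of that pair turned round, with 8.09% in Ezh2 knockout and 6.79% in Ezh2 wild-type cells, and p53 knockout and p53 wild-type cells had 9.003% and 8.96%. Peaks with equal p were taken there by chromosome and position. What this did to the order was not tested, and no interval was computed for these shares.

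Few SIRT1 peaks in domains passed a q of 0.05. They numbered 26 in 24 domains (1.16%) in Ezh2 knockout cells and 3 in 3 domains (0.144%) in Ezh2 wild-type cells, 18 in 18 domains (0.867%) in p53 knockout cells and 3 in 3 domains (0.144%) in p53 wild-type cells. Over all H3K27ac peaks the shares were 0.227%, 0.062%, 0.126% and 0.0523% in those libraries. In p53 knockout cells the strongest, with a fold of 5.51, 9 fragments and a −log10 q of 2.87, lay inside Cd300a, in a domain 69863 bp from Zfp36l2 and in one 10087 bp from Dppa3. Others of that library, with 8 fragments, were at the starts of Inpp5d, which encodes the phosphatase SHIP1, of Lcp2 and Nrros, and in the Tyrobp, Actg1 and Ncf4 domains. In Ezh2 knockout cells the strongest (fold 5.39, 9 fragments, −log10 q of 2.52) lay at the start of Efhd2, inside Mtss1, inside Banp and 81873 bp from Nrp1. The Ninj1, Dhx34, Plekho1, Cnr2, Tns3 and Pik3r5 domains had one of 8 fragments. In wild-type cells, those passing were in the Tfeb gene body, at Gm29733 and 19714 bp from Irf2bp2 (Ezh2 wild type), and at Spi1, inside Irak2 and 108451 bp from Fmo9 (p53 wild type). The domains of this paragraph were chosen after their values were seen.

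Of the 2077 domains, 146 (7.03%) had a SIRT1 peak in all 4 lists, 449 in 3, 612 in 2, 580 in 1 and 290 (14.0%) in none. Median width was 11498 bp for those with all 4 and 6339 bp for those with none. Among peaks of 3000 to under 5000 bp, 1.09% had all 4 and 35.1% none. Where several lists had a peak in 1 domain, most peaks did not coincide. Of the SIRT1 summits that Ezh2 knockout cells had in domains, 9.17% (54 of 589) lay in a SIRT1 peak of Ezh2 wild-type cells, and 8.21% (147 of 1791) of those of p53 knockout cells lay in a peak of p53 wild-type cells. In the peaks of 3000 to under 5000 bp the same values were 7.51% and 9.01%, and outside H3K27ac they were 7.87% (interval 7.46% to 8.31%) and 4.30% (4.13% to 4.47%). For the p53 pair the share in domains (interval 7.02% to 9.57%) was thus above that outside H3K27ac, where the density of SIRT1 peaks was lower too. For the Ezh2 pair the intervals overlapped in this direction. Taken the other way, 3.38% of Ezh2 wild-type summits in domains lay in an Ezh2 knockout peak (interval 2.62% to 4.35%). Outside H3K27ac that share was 1.79% (1.69% to 1.89%). Lists of like genotype coincided as little, with 7.71% of Ezh2 wild-type summits in domains lying in a p53 wild-type peak. Summits were spread over the whole length of the domains, each 20% of the length holding between 17.1% and 24.3% of them. Within 500 bp of the H3K27ac summit lay 17.0%, 15.5%, 16.5% and 16.0% of them in Ezh2 knockout, Ezh2 wild-type, p53 knockout and p53 wild-type cells, where 11.2% of the domain length lies.

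**Figure D4:**
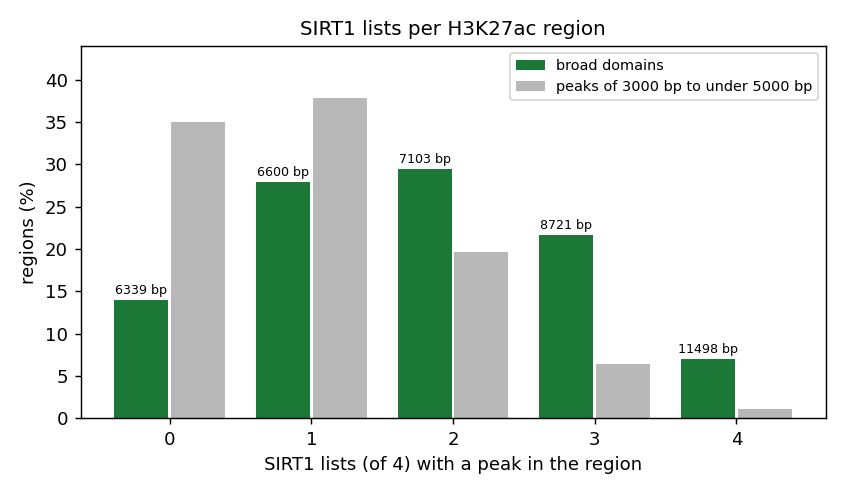
Percentage of broad domains (green) and of H3K27ac peaks of 3000 to under 5000 bp (grey) by the number of SIRT1 lists with a peak in the region. The median width of the domains is printed over each green bar and is 11498 bp where all 4 lists have a peak, against 6339 bp where none has.

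Domains at gene starts had the densest SIRT1. The 430 domains with a start within 1000 bp held 46.7 summits per Mb (interval 40.1 to 54.1) in Ezh2 knockout cells, 117 (106 to 128) in Ezh2 wild-type cells, 127 (116 to 139) in p53 knockout cells and 114 (104 to 125) in p53 wild-type cells. The 705 intergenic domains held 26.2, 81.0, 96.9 and 76.8 in the same libraries, and in none of them did the 2 intervals overlap. Domains in gene bodies held 31.2, 92.9, 89.3 and 80.9.

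Single domains show what such values rest on. The 19799 bp domain at Spi1 had 2 SIRT1 peaks with folds up to 3.78 in Ezh2 knockout cells and 5 up to 3.85 in Ezh2 wild-type cells. In p53 knockout cells it had 4, up to 4.34, and in p53 wild-type cells 5, up to 5.23 on 8 fragments. The 27216 bp domain at Ninj1 had 2 peaks up to 4.85 in Ezh2 knockout and 6 up to 3.85 in Ezh2 wild-type cells, and 7 up to 3.31 in p53 knockout and 3 up to 4.07 in p53 wild-type cells. The 36623 bp domain inside Tfeb had 1 in Ezh2 knockout and 5 in Ezh2 wild-type cells, and 6 in p53 knockout and 4 in p53 wild-type cells. No SIRT1 peak of another list overlapped 8 of the 16 peaks at Spi1, 12 of the 18 at Ninj1 and 14 of the 16 in Tfeb, and the peaks were 193 to 726 bp wide. The widest domain, near Eya3, had 6 and 10 in Ezh2 knockout and wild type and 9 and 5 in p53 knockout and wild type. Further domains with peaks in all 4 lists and high summed folds lay at Efhd2, Ahnak, Ensa, Dhx34 and Pip5k1c, at an end of Siglec1, a receptor of macrophages, and of Gnb3, and inside Zmiz1 and Plekho2. At the other end, the 8534 bp domain at Lpl and the 5289 bp domain at Tnfaip3 had no SIRT1, EZH2 or p53 peak.

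**Figure D5:**
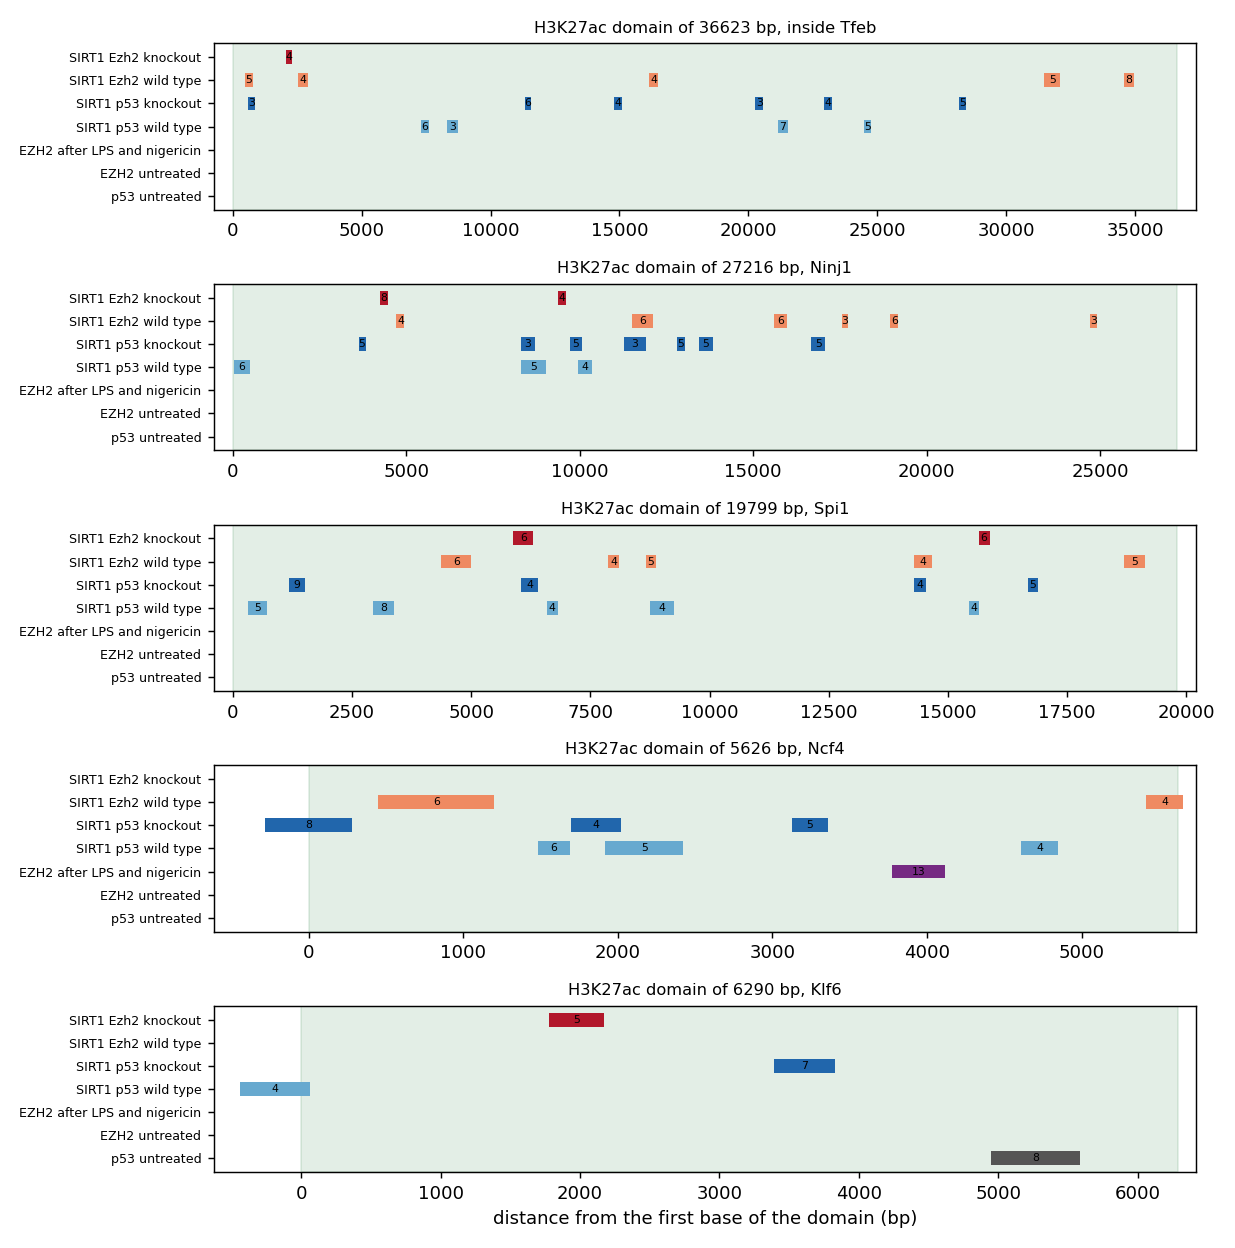
SIRT1, EZH2 and p53 peaks in 5 broad domains (green shading), by distance in bp from the first base of the domain, with the number of fragments at each summit printed on the peak. At Ninj1, 12 of 18 SIRT1 peaks overlap none of another list, and the EZH2 peak at Ncf4 (13 fragments) and the p53 peak at Klf6 (8 fragments) are the only ones of those factors in these 5 domains.

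EZH2 peaks in broad domains were few and weak. They lay in 51 domains (2.46%, interval 1.87% to 3.21%) after LPS and nigericin and in 34 (1.64%, 1.17% to 2.28%) in untreated cells, against 0.405% of all H3K27ac peaks after LPS and nigericin and 0.405% in untreated cells. Peaks of 3000 to under 5000 bp had one in 1.37% and 0.879% of cases. Per Mb of domain there were 2.84 summits after LPS and nigericin and 1.90 in untreated cells. Peaks of 3000 to under 5000 bp held 3.63 and 2.33 per Mb in the same libraries. The ratios of domains to those peaks were 0.784 (interval 0.506 to 1.22) and 0.815 (0.472 to 1.42), so EZH2 was no denser in the domains. There were 21.2 and 31.5 summits per Mb of H3K27me3 peaks, and 1.91 and 3.68 outside H3K27ac. H3K27me3 peaks held 52.1% and 40.9% of all EZH2 summits in these libraries, and the choice of domains bars overlap with them. A density below that of H3K27me3 peaks is thus in part set by that choice. The sequence outside H3K27ac includes H3K27me3 peaks. The 2 lists had 3 domains in common, of 82 with a peak in either, which is 5.88% of the 51 and 8.82% of the 34. These lay 21170 bp from Ergic1, inside Chchd6 and 18774 bp from Gvin1. H3K27me3 lay within 10000 bp of 7 of the 51 domains (13.7%) and 8 of the 34 (23.5%), and of 223 of all 2077 (10.7%).

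Of the 2077 domains, 2 (0.0963%, interval 0.0264% to 0.350%) had an EZH2 peak at a q of 0.05 or less after LPS and nigericin, against 0.0213% of all H3K27ac peaks. One lay in the 5626 bp domain at an end of Ncf4, which encodes a subunit of the phagocyte NADPH oxidase, with a fold of 3.68 on 13 fragments. The other lay 18774 bp from the interferon-inducible gene Gvin1, in a domain of 6775 bp that held 3 EZH2 peaks, with a highest fold of 3.84 on 12 fragments, and 1 peak with a fold of 2.24 in untreated cells. In untreated cells no domain had such a peak, and the limit of 3 counts allowed for a count of 0 is 0.144% (the Wilson interval reaches 0.185%), against 0.0194% of all H3K27ac peaks. Among the next in fold after LPS and nigericin were domains 15895 bp from the proton pump gene Atp6v1c1, 8309 bp from Il1f10 and inside Fmnl2 (3.29 each), and at the start of Irgm1, an interferon-induced GTPase gene (3.03). In untreated cells the highest were inside Nek6 (3.04), 19845 bp from Slfn4, 21905 bp from Ptchd3 and 135369 bp from Pik3r1 (2.94 each), and at Plekho1 (2.91).

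p53 peaks lay in 23 domains (1.11%, interval 0.739% to 1.66%), against 0.196% of all H3K27ac peaks and 0.598% of the peaks of 3000 to under 5000 bp. Per Mb there were 1.23 summits in the domains, 1.67 in those shorter peaks and 1.87 outside H3K27ac. None passed a q of 0.05 in a domain, against 0.00582% of all H3K27ac peaks, and the highest rested on 9 fragments. The highest folds, 3.40 each, were in a domain 12427 bp from Metrnl and in one 49330 bp from Lpp that also had an EZH2 peak after LPS and nigericin (fold 2.39). Psen2, which encodes a presenilin, followed with 3.24, and domains inside Vmp1, Myof, Evl, Dnmt3a and Notch2 with 2.85 to 3.06. The Klf6 domain, whose promoter is shown above, had 1 p53 peak with a fold of 2.0002 on 8 fragments. The 1 p53 target gene at a broad domain, Gdf15, had no p53 peak in it. Of the 23 domains, 20 also had SIRT1 in at least 1 list, and 74 of the 82 with EZH2 did, while 1787 of all 2077 did.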

How the data were processed

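The ChIP-seq of macrophages was available as 9 separate peak lists with 10 columns each, one for every immunoprecipitated library. The submitters' processing notes name MACS2, deepTools and the build GRCm38 (mm10). Tool versions, the aligner, read filters and total reads were not given in the sources used here, and depth is known only from the fragments and background behind a peak. In the deposited fold column each peak has the ratio of summit fragments to local background, both with 1 added. The p-value and q-value of a peak stand in the deposited −log10 columns. The deposited score column was not used. From the values, the EZH2, p53 and SIRT1 lists stop at a p of 0.01, whatever the q.

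Peaks on 20 chromosomes were used and coordinates are 1-based. The members and the 18 gene lists were chosen with earlier results of these data known. Overlap was 1 bp or more. Shares have Wilson intervals and densities exact Poisson intervals at 95%. With 1 library per group no test was run. Gene starts came from RefSeq (GRCm38.p6). Where none is listed, as for all of chromosome 18, both gene ends were used. Whole fragments (tolerance 0.001 in −log10 p) were solved from fold and p in at least 99.98% of the peaks of each of the 7 EZH2, p53 and SIRT1 lists, and overlap counting and this step were checked on simulated data. The rule for naming took the 15 widest domains, the 10 highest in fold, the 10 with the highest EZH2 (per list) and p53 folds, up to 15 with SIRT1 in all lists by summed fold, up to 6 members per gene list by width, and 3 on each side of the width limit, and not all of them are named. List members beyond the first 6, domains named for a group, for chromosome X, for a q of 0.05 or for a microRNA, and those without any peak were chosen after their values were seen. Wider and narrower limits, stricter and equal lists and other gene assignments were tried. Python 3.11.15, pandas 2.3.3, numpy 2.4.6 and scipy 1.17.1 were used.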

Additional observations from a re-analysis of the deposited data

How the results depend on the processing

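No paired analysis was possible because each group has 1 library. A minimum width of 8000 bp left 827 domains and joining H3K27ac peaks within 1000 bp gave 3970, in place of 2077. Minimum widths of 4000, 6000 and 8000 bp gave shares with SIRT1 of 20.4%, 26.6% and 31.4% in Ezh2 knockout, 45.7%, 54.6% and 64.7% in Ezh2 wild type, 48.1%, 57.9% and 65.3% in p53 knockout and 44.8%, 54.9% and 63.0% in p53 wild type. At 8000 bp the share was 3.26% for EZH2 after LPS and nigericin and 1.93% for p53. At that width 202 protein-coding genes (0.934%) remained at a domain, and 28 list genes in place of 50.

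With peaks at a q of 0.05 or less, the shares were 1.16%, 0.144%, 0.867% and 0.144% for SIRT1 in Ezh2 knockout, Ezh2 wild type, p53 knockout and p53 wild type, 0.0963% for EZH2 after LPS and nigericin, and 0 for EZH2 untreated and 0 for p53. The densities were then 1.34, 0.167, 1.00, 0.167, 0.111, 0 and 0 summits per Mb in that order. With each list limited to its 4878 best peaks, the length of the p53 list, SIRT1 shares were 8.09%, 6.79%, 9.003% and 8.96% with densities of 10.1, 8.42, 10.8 and 10.6 per Mb, and EZH2 in untreated cells had 0.433% and 0.502 per Mb, so the lower share in Ezh2 knockout than in Ezh2 wild-type cells turned round. In these equal lists, peaks with equal p were taken by chromosome and position, and the effect on that order was not tested. Fewer peaks per list make each of the values at a q of 0.05 or less and in equal lists smaller by construction. With peaks of 4 or more fragments, shares were 45.1% in Ezh2 wild type, 47.1% in p53 knockout and 42.2% in p53 wild type. With 5 or more they were 20.1% in Ezh2 knockout, 23.5% in Ezh2 wild type, 27.7% in p53 knockout and 22.8% in p53 wild type.

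The ratio of SIRT1 density in domains to that in peaks of 3000 to under 5000 bp was 1.04, 0.983, 0.969 and 1.09 in equal lists. In the same order at a q of 0.05 or less it was 0.799, 0.359, 3.59 and 0.599, on 24, 3, 18 and 3 summits. A domain overlapping any part of a gene gave 980 genes in place of 471. With a start covered by the domain, lysosomal genes were 6 and actin genes 4, where the share of all protein-coding genes was 1.58%. With listed starts alone, lysosomal genes were 8 of 21 and surface receptors 3 of 21, where the share of all such genes was 2.10%. Counting summits, overlaps of 50%, keeping domains with H3K27me3, or leaving out the 3 regions with a peak in all 7 lists moved no share beyond its interval.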

Other observations

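The 63 wide H3K27ac peaks left out for H3K27me3 were set beside the 2077 domains. SIRT1 lay in 23.6% of the domains and 15.9% of the left-out peaks (interval 8.86% to 26.8%) in Ezh2 knockout cells, and in 51.9% and 52.4% in Ezh2 wild-type cells. In p53 knockout cells the shares were 53.8% and 41.3% (30.0% to 53.6%), and in p53 wild-type cells 50.5% and 42.9%. EZH2 lay in 2.46% of the domains and 2 of the 63 left-out peaks after LPS and nigericin, and in 1.64% and 3 of 63 in untreated cells. p53 lay in 1.11% of the domains and 0 of the 63, which is too few peaks to show a difference.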
